A study of Mus musculus with 6 samples.

Results

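The genes described here encode kallikreins, which are secreted serine proteases, and inhibitors of proteases: the clade B serpins (SERPINB), the Kazal-type inhibitors (SPINK), the stefins (CSTA, CSTB and STFA) and the type 2 cystatins. Members were chosen by symbol alone: SERPINB, KLK, SPINK or CST followed by a number, CSTA, CSTB and the STFA rows, with no pseudogene suffix and at least 10 counts summed over all libraries. Of 67 symbols that fit these names, 48 reached that count, out of 46937 symbols in the table. A further 14 were listed at 0 in all 6 libraries and 5 had 1 to 9 counts. The libraries were total RNA from biopsies of mouse tumours that model lung squamous cell carcinoma, 3 in each of 2 groups. PSCN tumours carried NSD3 T1242A, a changed form of the histone methyltransferase NSD3, in addition to every allele of the PSC tumours. PSC tumours, labelled as wild type for NSD3, carried constitutively active PI3K (PIK3CA H1047R), SOX2 overexpression and deletion of CDKN2A and CDKN2B. The labels used here give no strain, age or sex, no promoter or Cre driver, and no statement that the biopsies came from separate mice. A p-value therefore reflects the spread of these libraries alone, and that spread may be partly technical. The PSC libraries were of both sexes by their transcripts (below), so they did not all come from the same mouse.

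Kallikreins are made as inactive precursors by stratified and glandular epithelium and are switched on outside the cell by cleavage, often by one another. In skin, several of them cut the corneodesmosome proteins that hold cornified cells together, and SPINK5 encodes LEKTI, the multidomain inhibitor that restrains them. Clade B serpins mostly stay inside the cell, where many of them, though not SERPINB5, trap a target protease by a suicide mechanism. Stefins inhibit cysteine cathepsins in the cytosol and, in keratinocytes, take part in building the cornified envelope, whereas type 2 cystatins are secreted. Normal airway epithelium is not cornified, and squamous tumours can keep much of this stratified programme.

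Sequences are shown first for the serpin cluster of chromosome 1 and for the kallikreins, because their members sit side by side in the genome. The AP-1 motif TGANTCA (its own reverse complement, so both strands were read in one pass) was looked for in RefSeq promoter windows of GRCm38.p6, from 250 bases before to 50 bases after a gene's start. It was present in 2425 of 27025 genes with a window (8.97%) and in 9 of the 39 members with one (23.1%). Among the chromosome 1 serpins 7 of 10 genes held it, against 0 of 11 serpins of chromosome 13 and 0 of 9 kallikreins. It was held by 1 of 5 stefins (STFA3), 1 of 3 type 2 cystatins (CST7) and 0 of 1 SPINK gene (SPINK2). SPINK5 had no window. The 7 serpins are shown with 37 bases around each match, 5′ to 3′ on the coding strand, with the motif in capitals. A match is a description of letters, not a bound site.
SERPINB5 (chr1:106861020-106861056, + strand): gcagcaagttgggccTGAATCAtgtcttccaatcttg
SERPINB12 (chr1:106934389-106934425, + strand): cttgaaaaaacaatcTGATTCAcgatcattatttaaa
SERPINB11 (chr1:107362118-107362154, + strand): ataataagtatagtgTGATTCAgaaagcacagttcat
SERPINB11 (chr1:107362223-107362259, + strand): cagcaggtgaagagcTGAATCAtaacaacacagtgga
SERPINB7 (chr1:107422629-107422665, + strand): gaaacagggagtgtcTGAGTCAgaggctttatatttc
SERPINB2 (chr1:107511314-107511350, + strand): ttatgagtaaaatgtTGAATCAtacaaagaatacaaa
SERPINB10 (chr1:107528934-107528970, + strand): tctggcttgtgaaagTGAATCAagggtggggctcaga
SERPINB8 (chr1:107589968-107590004, + strand): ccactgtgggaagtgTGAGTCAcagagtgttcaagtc
SERPINB8 (chr1:107590004-107590040, + strand): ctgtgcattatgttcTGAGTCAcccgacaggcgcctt
The promoters of KLK14 and of SERPINB4 (mouse Serpinb3a), the kallikrein and the serpin with the smallest p-values of their groups, are shown whole in 300 bases and hold no such match. They are all in lower case because no motif was marked.
SERPINB4 (chr1:107052254-107052553, - strand): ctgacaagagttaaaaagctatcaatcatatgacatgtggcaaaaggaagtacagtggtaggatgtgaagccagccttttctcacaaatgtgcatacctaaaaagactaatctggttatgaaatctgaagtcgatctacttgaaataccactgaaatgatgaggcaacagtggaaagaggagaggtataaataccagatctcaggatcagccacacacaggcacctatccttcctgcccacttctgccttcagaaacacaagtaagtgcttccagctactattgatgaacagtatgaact
KLK14 (chr7:43690168-43690467, + strand): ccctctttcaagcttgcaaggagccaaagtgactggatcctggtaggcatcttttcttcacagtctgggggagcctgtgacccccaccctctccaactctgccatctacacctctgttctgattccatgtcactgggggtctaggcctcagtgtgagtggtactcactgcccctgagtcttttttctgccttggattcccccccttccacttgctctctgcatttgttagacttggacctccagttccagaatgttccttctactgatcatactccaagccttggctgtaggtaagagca

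NSD3 itself had 821, 918 and 1932 CPM (the count scaled to the TMM-adjusted library size) in PSCN libraries 1, 2 and 3, against 79.7, 96.7 and 102 CPM in PSC libraries 1, 2 and 3. It averaged 1223 ± 615 CPM in PSCN libraries and 92.7 ± 11.5 CPM in PSC libraries (SD, n = 3 each). Its log2 fold change of PSCN over PSC was 3.72 (SE 0.41) with an adjusted p of 0.137, and all 3 PSCN libraries were above all 3 PSC libraries. Total counts lay between 69563622 and 72807077 per library. PSC library 3 resembled the other group more than its own: across genes it had a mean correlation of 0.941 with the PSCN libraries and of 0.908 with its own group, given here as a description. By XIST and DDX3Y, PSC libraries 2 and 3 were female and the other 4 libraries male, so sex and group cannot be fully told apart. Markers of squamous epithelium, of which 12 of 14 listed genes were measured, summed to 13695, 30551 and 9806 CPM in PSCN libraries 1, 2 and 3, against 183, 1823 and 6990 CPM in PSC libraries 1, 2 and 3. All 12 had a log2 fold change above 0, with a median of 2.44, and none was called. The defining marker KRT5, the basal keratin, had 3487, 7319 and 2678 CPM in PSCN libraries and 52.1, 575 and 2035 CPM in PSC libraries. Club cell markers ran the other way, with 1959, 572 and 1569 CPM in PSCN libraries and 27560.2, 18353 and 3792 CPM in PSC libraries. The tissue marker sums therefore moved with the groups and with PSC library 3, and their part in the results below was not tested. In such bulk samples, fewer cells of a type and less RNA per cell cannot be told apart.

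Most protease and inhibitor genes had higher levels in the PSCN tumours, led by the kallikreins, by SPINK5 and by serpins of chromosome 1, while cystatin C (CST3) had lower levels there. Summed over all 48 members, the level was 3070.1, 7588 and 3519.6 CPM in PSCN libraries 1, 2 and 3, against 730.3, 1228 and 2628 CPM in PSC libraries 1, 2 and 3. The median log2 fold change of the 39 members that passed the filter on low counts was 1.86, against -0.01 over all 21201 genes tested, and 34 of the 39 (87.2%) were above 0, against 49.1% of all genes. None of these differences passed the test: edgeR's quasi-likelihood test with Benjamini-Hochberg adjustment called 0 members higher and 0 lower at 0.05, where 0.00472% and 0% of all genes were called, and the smallest adjusted p of a member was 0.179. At an unadjusted p under 0.05, 10 members were higher (25.6%, against 9.48% of all genes) and 1 was lower (2.56%, against 12.2% of all genes).

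Other tools differed from this in how many members they called on the same libraries. In the authors' deposited table from DESeq2, 8 of the 38 members with an adjusted p were called higher, against 3.92% of all genes, and 0 were called lower, against 8.1%. Those 8 were SERPINB4, KLK14, STFA1, CST6, SERPINB9G, KLK12, KLK9 and STFA2L1. The DESeq2 fit run here on the counts also called 8 of 38 higher (4.02% of all genes) and 0 lower (8.2%). In limma-voom with sample quality weights, 14 members were called higher (8.43% of all genes) and CST3 was called lower (5.84%), with a weight of 0.364 on PSC library 3 and 2.92 on PSC library 2. Without quality weights limma-voom called 0 members and 0 genes in either direction. Without PSC library 3, edgeR called 5 of 40 members higher (3.39% of all genes), namely SERPINB1, KLK14, KLK8, CSTB and CST6, and 0 lower (5.4%). No member was called without PSC library 1 (0.0046% of all genes higher), with no filter (0.00311%), with a filter of 1 CPM in 3 libraries (0.0183%) or with edgeR's adjusted deviances (0.0142%). For 16 of the 39 tested members (41%) the PSCN and PSC libraries did not overlap with PSCN on top, against 15.2% of all genes, and for CST3 alone they did not overlap with PSC on top, against 13.4%.

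**Figure D1:**
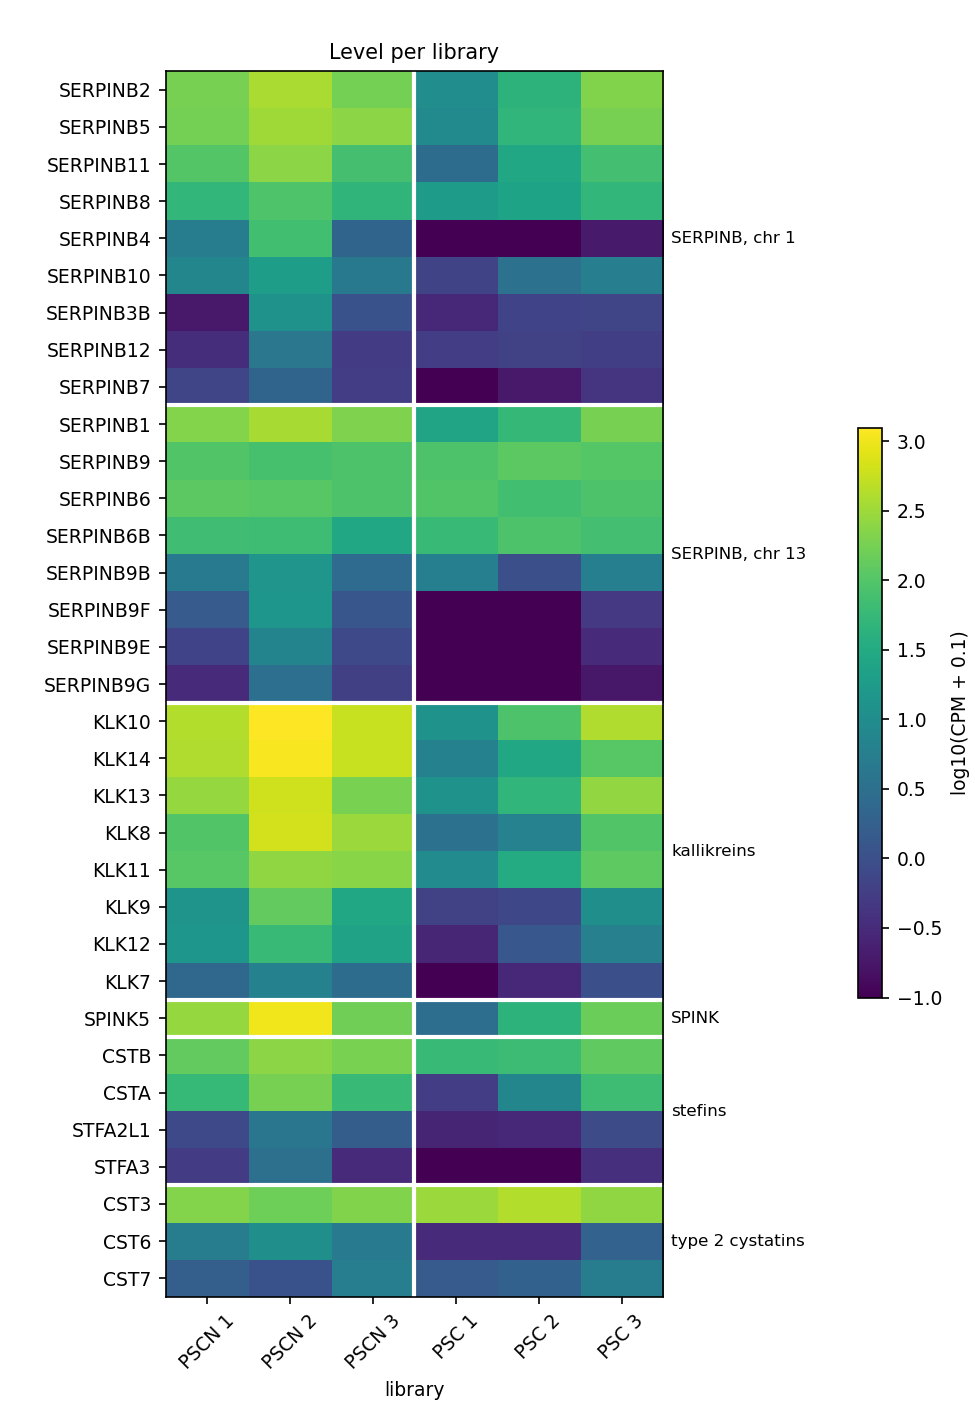
Level of the named members in each library as the base 10 logarithm of CPM + 0.1, with PSCN libraries in the left 3 columns and PSC libraries in the right 3. Rows are grouped by family; yellow is high and dark violet low, and the KLK10 row is brightest in PSCN library 2 (1253 CPM) and darkest in PSC library 1 (12.4 CPM), and CST3 shows the opposite order of groups.

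The kallikreins held 52.3% of all member CPM in PSCN libraries and 28.1% in PSC libraries. The PSC share was 39.3% in library 3, against 6.12% in library 1 and 17.2% in library 2, and 13.1% over PSC libraries 1 and 2 together, where type 2 cystatins and chromosome 13 serpins summed higher. All 10 kallikrein members passed the filter and all 10 had a log2 fold change above 0, with a median of 3.32. Their CPM summed to 1349.7, 4149 and 1922 in PSCN libraries 1, 2 and 3, against 44.7, 212 and 1033 in PSC libraries 1, 2 and 3, so PSC library 3 came close to PSCN library 1. For 6 of the 10 (KLK14, KLK12, KLK9, KLK7, KLK8 and KLK10) every PSCN library was above every PSC library, against 15.2% of all genes tested.

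KLK14, a trypsin-like protease that can activate other kallikreins and cleave desmogleins in skin, had 409, 1149 and 566 CPM in PSCN libraries 1, 2 and 3, against 6.3, 28.6 and 108 CPM in PSC libraries 1, 2 and 3. The groups did not overlap, and even the highest PSC library was far under the lowest PSCN library. KLK14 averaged 708 ± 389 CPM in PSCN libraries and 47.6 ± 53.4 CPM in PSC libraries, which gave a log2 fold change of 3.89 (SE 1.09, adjusted p = 0.19). KLK12, whose human product can activate other kallikreins, was read at 13.9, 59.1 and 23.3 CPM in PSCN libraries 1, 2 and 3, against 0.175, 1.19 and 6.07 CPM in PSC libraries 1, 2 and 3, again with no overlap. The mean level of KLK12 was 32.1 ± 23.8 CPM in PSCN libraries and 2.48 ± 3.15 CPM in PSC libraries, for a log2 fold change of 3.69 (SE 1.29, adjusted p = 0.2). KLK9, a less studied member of the family, had 13.3, 129 and 27.1 CPM in PSCN libraries 1, 2 and 3, against 0.513, 0.673 and 11.0 CPM in PSC libraries 1, 2 and 3. PSCN library 2 was by far the highest, and PSC library 3 was near PSCN library 1. On average KLK9 had 56.5 ± 63.3 CPM in PSCN libraries and 4.05 ± 5.99 CPM in PSC libraries, and the log2 fold change was 3.80 (SE 1.55, adjusted p = 0.23). In the authors' deposited table the adjusted p was 0.00138 for KLK14, 0.0131 for KLK12 and 0.0276 for KLK9.

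KLK10 was the most abundant kallikrein by counts, with 421, 1253 and 577 CPM in PSCN libraries 1, 2 and 3, against 12.4, 90.7 and 412 CPM in PSC libraries 1, 2 and 3. Its groups only just missed each other, since PSC library 3 lay a little below PSCN library 1. Means were 750.3 ± 442 CPM in PSCN libraries and 172 ± 212 CPM in PSC libraries, a log2 fold change of 2.13 (SE 1.18, adjusted p = 0.327). KLK8 (neuropsin, a protease of epidermis and brain) averaged 354 ± 284 CPM in PSCN libraries and 35.9 ± 53.7 CPM in PSC libraries, with a log2 fold change of 3.30 (SE 1.47, adjusted p = 0.251). Without PSC library 3 the log2 fold changes were 5.35 for KLK14 and 6.20 for KLK8, with adjusted p of 0.0452 and 0.044. KLK13 averaged 369 ± 234 CPM in PSCN libraries and 112 ± 142 CPM in PSC libraries, a log2 fold change of 1.72 (SE 1.11, adjusted p = 0.388). KLK11 averaged 199.8 ± 80.1 CPM in PSCN libraries and 55.1 ± 59.5 CPM in PSC libraries, a log2 fold change of 1.86 (SE 0.91, adjusted p = 0.284). For KLK13 and KLK11 PSC library 3 lay inside the PSCN range. KLK7, the chymotrypsin-like enzyme that cuts corneodesmosin, stayed low at 3.71 ± 2.16 CPM in PSCN libraries and 0.366 ± 0.482 CPM in PSC libraries with a log2 fold change of 3.34 (SE 1.44, adjusted p = 0.244). KLK6 and the row KLK3, which matched no mouse gene, had means under 1 CPM in both groups, with log2 fold changes of 3.71 (SE 1.63) and 0.69 (SE 1.02).

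Set per kilobase of exon, so that genes can be compared with one another, KLK14 and KLK10 stood at 557 and 546 CPM per kb in PSCN libraries, against 37.5 and 125 CPM per kb in PSC libraries. KLK8, KLK13 and KLK11 followed in PSCN at 229.6, 161 and 136 CPM per kb, against 23.3, 48.9 and 37.6 CPM per kb in PSC. KLK10 was thus the leading kallikrein per length in PSC libraries, whereas KLK14 and KLK10 were nearly equal in PSCN libraries.

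The 9 kallikreins that matched the annotation lie next to each other on the plus strand of chromosome 7 (GRCm38, GENCODE M21), from KLK14 at 43690418 to the end of KLK6 at 43832030, a span of 141613 bp. The gaps are as short as 819 bp between KLK9 and KLK8 and 1018 bp between KLK12 and KLK11. Levels did not follow the order along the locus: KLK12 and KLK9, each flanked by abundant genes, were at 32.1 and 56.5 CPM in PSCN libraries and 2.48 and 4.05 CPM in PSC libraries. Farther along the same strand KLK5 and KLK4 were listed at 0 in all libraries, which allows up to 0.0463 CPM (3 counts) in the library with the smallest TMM-adjusted size, and KLK15 had 4 counts in all. KLK5 is the enzyme that, in human skin, starts the activation of the others. An annotated gene on the opposite strand overlaps KLK8 to KLK14. The sources used here do not say whether reads were counted by strand, so reads of the 2 strands may be mixed.

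**Figure D2:**
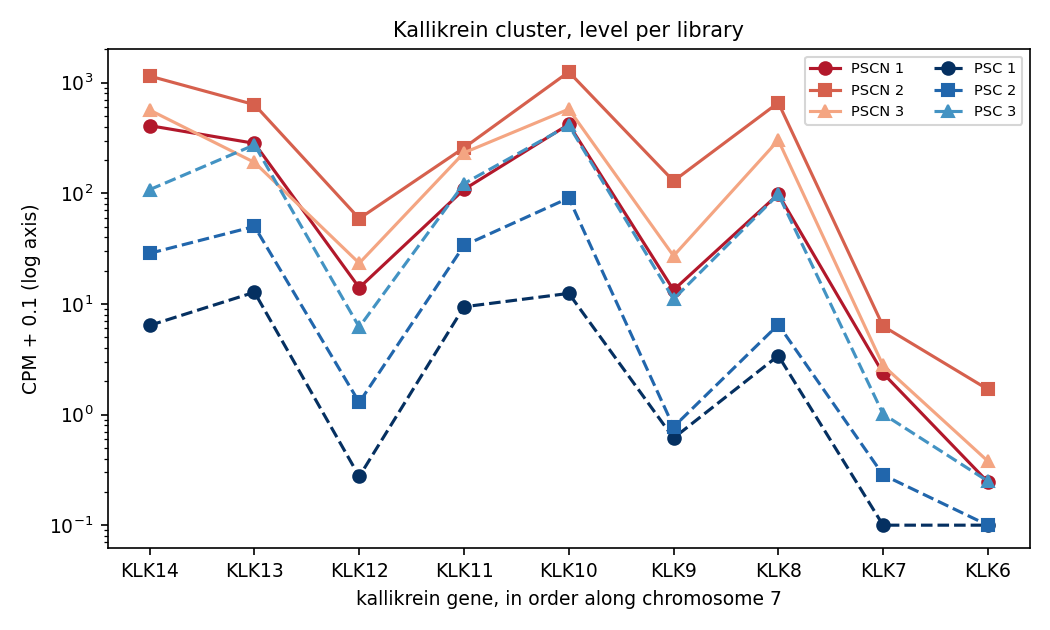
CPM + 0.1 on a log axis for each library along the kallikrein locus, in genome order from KLK14 to KLK6; PSCN libraries and PSC libraries have separate colours. KLK14 has its 3 PSCN points between 409 and 1149 CPM, above all PSC points (6.30 to 108 CPM), while KLK11 and KLK13 have a PSC point within the PSCN range.

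SPINK5 was the one SPINK gene with a sizeable level. It had 279, 1009.5 and 160.0 CPM in PSCN libraries 1, 2 and 3, against 2.97, 44.5 and 151 CPM in PSC libraries 1, 2 and 3, and the lowest PSCN library was only slightly above the highest PSC library. SPINK5 averaged 483 ± 460.0 CPM in PSCN libraries and 66.3 ± 76.5 CPM in PSC libraries, which gave a log2 fold change of 2.87 (SE 1.38, adjusted p = 0.278). Leaving out single libraries moved this log2 fold change between 1.70 and 4.36. The other SPINK rows were sparse: of 6 members 3 passed the filter, the median of those 3 was 1.09, and no SPINK gene but SPINK5 reached a mean of 1 CPM in either group. SPINK10 had a log2 fold change of 1.09 (SE 0.87), which was -0.19 without PSCN library 1. SPINK2 had one of 0.04 (SE 0.53), which was -0.37 without PSCN library 2 and -0.25 without PSC library 2. SPINK1, SPINK12 and SPINK4 were not tested and had 25, 22 and 26 counts over all libraries. Per kilobase, SPINK5 stood at 101 CPM per kb in PSCN libraries and 13.8 CPM per kb in PSC libraries, against 557 and 37.5 CPM per kb for KLK14.

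The clade B serpins of chromosome 1 lie between SERPINB5, which starts at 106861173, and SERPINB8, which ends at 107610484 (GRCm38, GENCODE M21). Of these 10 genes, 9 passed the filter and all 9 had a log2 fold change above 0, with a median of 1.70. Their sum was 518, 1164 and 550.0 CPM in PSCN libraries 1, 2 and 3, against 41.6, 149 and 521 CPM in PSC libraries 1, 2 and 3, so PSC library 3 reached the level of PSCN library 1. Groups did not overlap, with PSCN on top, for 3 of the 9 (SERPINB4, SERPINB7 and SERPINB11), against 15.2% of all genes tested.

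SERPINB5 (maspin, a keratinocyte serpin without protease inhibitory activity) had 173, 332 and 242 CPM in PSCN libraries 1, 2 and 3, against 9.14, 49.1 and 178 CPM in PSC libraries 1, 2 and 3. PSC library 3 slightly exceeded PSCN library 1, while the other PSC libraries were lower than any PSCN library. The mean level of SERPINB5 was 249 ± 79.6 CPM in PSCN libraries and 78.8 ± 88.3 CPM in PSC libraries, for a log2 fold change of 1.66 (SE 0.97, adjusted p = 0.349). SERPINB2 (plasminogen activator inhibitor type 2) had 180.4, 381 and 174 CPM in PSCN libraries 1, 2 and 3, against 10.3, 44.5 and 210.0 CPM in PSC libraries 1, 2 and 3, and here PSC library 3 exceeded PSCN libraries 1 and 3. On average SERPINB2 had 245 ± 118 CPM in PSCN libraries and 88.3 ± 107 CPM in PSC libraries, and the log2 fold change was 1.47 (SE 1.03, adjusted p = 0.42). SERPINB8, an inhibitor of furin-like proteases, had 51.0, 93.5 and 48.6 CPM in PSCN libraries 1, 2 and 3, against 18.2, 23.8 and 51.9 CPM in PSC libraries 1, 2 and 3. PSC library 3 again lay between PSCN libraries. Means were 64.4 ± 25.2 CPM in PSCN libraries and 31.3 ± 18 CPM in PSC libraries, a log2 fold change of 1.04 (SE 0.47, adjusted p = 0.257). SERPINB11 averaged 141 ± 91.6 CPM in PSCN libraries and 34.7 ± 36.3 CPM in PSC libraries, a log2 fold change of 2.02 (SE 1.10, adjusted p = 0.321).

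SERPINB4, which RefSeq synonyms tie to mouse Serpinb3a, a relative of the human squamous cell carcinoma antigens, was close to absent from PSC libraries. It had 374, 4732 and 144 counts in PSCN libraries 1, 2 and 3, against 0, 0 and 7 counts in PSC libraries 1, 2 and 3. These counts correspond to 5.45, 73.1 and 2.01 CPM in PSCN libraries 1, 2 and 3, against 0, 0 and 0.0953 CPM in PSC libraries 1, 2 and 3. SERPINB4 averaged 26.9 ± 40.1 CPM in PSCN libraries and 0.0318 ± 0.055 CPM in PSC libraries, which gave a log2 fold change of 9.66 (SE 2.20, adjusted p = 0.179). This was the smallest adjusted p among all members, and single-library omission moved the log2 fold change between 6.77 and 13.90. Its coding sequence is 93.5% identical to that of SERPINB3B and 91.8% to that of SERPINB3C, so reads could be split among them. SERPINB3B averaged 4.53 ± 6.93 CPM in PSCN libraries and 0.456 ± 0.233 CPM in PSC libraries, with 12.5 CPM in PSCN library 2 and at most 0.991 CPM in the other PSCN libraries. Its log2 fold change of 3.31 (SE 1.63, adjusted p = 0.286) was 0.21 without that library. SERPINB7, a keratinocyte serpin that in humans is mutated in a palmoplantar keratosis, had 0.612, 1.99 and 0.46 CPM in PSCN libraries 1, 2 and 3, against 0, 0.0924 and 0.327 CPM in PSC libraries 1, 2 and 3. These low levels did not overlap, and the log2 fold change was 2.86 (SE 1.28, adjusted p = 0.254). SERPINB12 had a log2 fold change of 1.70 (SE 1.08, adjusted p = 0.382) that changed sign to -0.59 without PSCN library 2. SERPINB10 averaged 10.3 ± 7.58 CPM in PSCN libraries and 3.23 ± 2.54 CPM in PSC libraries, with a log2 fold change of 1.67 (SE 0.90, adjusted p = 0.319). It overlaps SERPINB2 on the same strand, and the GENCODE annotation types it as a polymorphic pseudogene, which the rule on symbols did not leave out. SERPINB3C, not tested, had 24 counts in all, 17 of them in PSCN library 2.

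Set beside the sequences shown above, the serpins with an AP-1 match included SERPINB5, SERPINB2 and SERPINB11, which were among the most abundant of the cluster, but also SERPINB12, at 1.59 CPM in PSCN libraries and 0.488 CPM in PSC libraries. SERPINB4 and SERPINB3B, with the largest log2 fold changes of the cluster, had no match in the window.

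Of the 12 serpins of chromosome 13, 10 passed the filter and 7 had a log2 fold change above 0, with a median of 0.65. This family was less one-sided: it summed to 511, 665 and 419 CPM in PSCN libraries 1, 2 and 3, against 276, 332 and 457 CPM in PSC libraries 1, 2 and 3. SERPINB1, an inhibitor of neutrophil elastase (its row matched no mouse gene by symbol and is grouped here by family), had 219, 369.8 and 205 CPM in PSCN libraries 1, 2 and 3, against 24.8, 53.0 and 181 CPM in PSC libraries 1, 2 and 3. All PSCN libraries were above all PSC libraries. The mean level of SERPINB1 was 265 ± 91.2 CPM in PSCN libraries and 86.2 ± 83.2 CPM in PSC libraries, for a log2 fold change of 1.62 (SE 0.74, adjusted p = 0.259). Without PSC library 3 the log2 fold change was 2.78 with an adjusted p of 0.044.

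SERPINB9, the inhibitor that protects cytotoxic lymphocytes from their own granzyme B, had 98.3, 80.8 and 89.8 CPM in PSCN libraries 1, 2 and 3, against 88.2, 118 and 104 CPM in PSC libraries 1, 2 and 3. Groups overlapped and the libraries were close together. On average SERPINB9 had 89.7 ± 8.75 CPM in PSCN libraries and 103 ± 14.8 CPM in PSC libraries, and the log2 fold change was -0.21 (SE 0.16, adjusted p = 0.468). Summed levels of 9 measured cytotoxic lymphocyte markers were 39.6, 25 and 97.5 CPM in PSCN libraries 1, 2 and 3, against 33.2, 49.2 and 170 CPM in PSC libraries 1, 2 and 3. The part of these cells in the SERPINB9 level was not tested. SERPINB6 averaged 104 ± 13.1 CPM in PSCN libraries and 85.1 ± 12.8 CPM in PSC libraries, a log2 fold change of 0.29 (SE 0.17, adjusted p = 0.354). SERPINB6B averaged 54.9 ± 22.5 CPM in PSCN libraries and 74.6 ± 14.0 CPM in PSC libraries, a log2 fold change of -0.44 (SE 0.36, adjusted p = 0.484). SERPINB9B had a log2 fold change of 0.75 (SE 0.89, adjusted p = 0.635), which was -0.22 without PSCN library 2. SERPINB1B and SERPINB1C had means under 1 CPM in both groups, with log2 fold changes of 0.56 (SE 0.50) and -0.06 (SE 0.46). That of SERPINB1C was 0.14 without PSCN library 3, 0.05 without PSC library 2 and 0.13 without PSC library 3. Of the members not tested, SERPINB6C had 0 counts in every PSCN library against 5, 23 and 0 counts in PSC libraries 1, 2 and 3, and SERPINB9C had 11 counts, all in PSCN library 2.

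A further 3 close relatives of SERPINB9 on the same chromosome were nearly off in PSC libraries. SERPINB9F had 1.43, 14.2 and 1.17 CPM in PSCN libraries 1, 2 and 3, against 0, 0 and 0.381 CPM in PSC libraries 1, 2 and 3. SERPINB9E had 0.569, 6.95 and 0.698 CPM in PSCN libraries 1, 2 and 3, against 0, 0 and 0.204 CPM in PSC libraries 1, 2 and 3. For SERPINB9G the levels were 0.219, 3.03 and 0.488 CPM in PSCN libraries 1, 2 and 3, against 0, 0 and 0.0817 CPM in PSC libraries 1, 2 and 3. For each of them PSCN library 2 was far above the others, and PSC library 3 was the only PSC library with a count. Their log2 fold changes were 5.45 (SE 2.05), 5.30 (SE 1.90) and 5.44 (SE 1.67), with adjusted p of 0.211, 0.203 and 0.192. Their coding sequences are 95% to 98.7% identical, so these are not independent observations and reads may be shared between them.

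**Figure D3:**
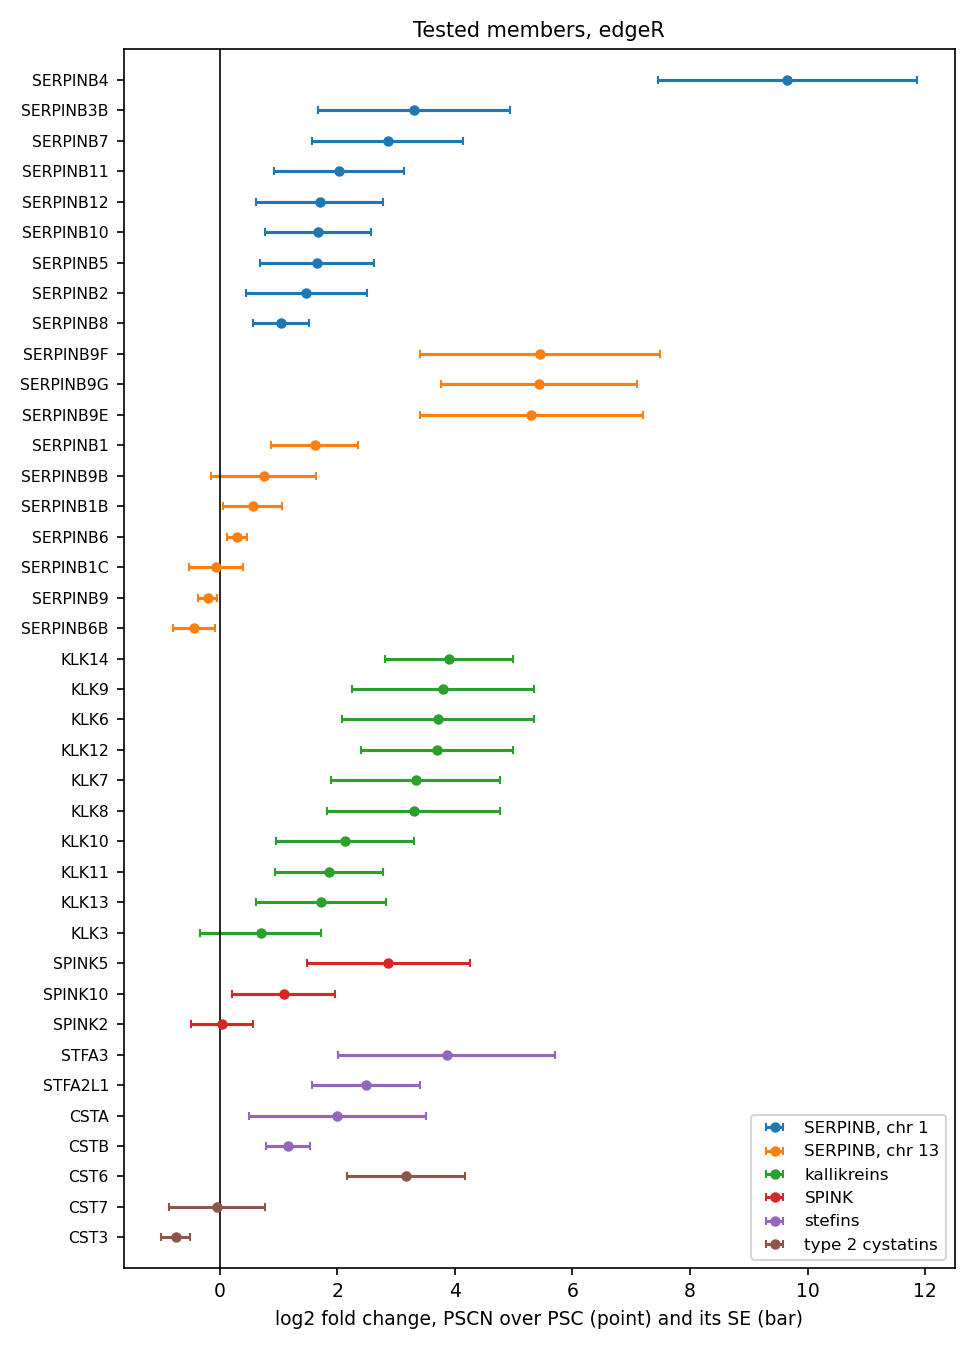
Log2 fold change of PSCN over PSC for the 39 tested members, with bars of 1 SE, grouped by family. All kallikreins and all serpins of chromosome 1 lie right of 0, and CST3 at -0.75 has the smallest p on the left.

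The stefins, which are cytosolic inhibitors of cathepsins, had 6 members, of which 4 passed the filter, all with log2 fold changes above 0 and a median of 2.24. CSTB (stefin B), present in most cells, had 129, 241 and 185 CPM in PSCN libraries 1, 2 and 3, against 59.9, 64.0 and 124 CPM in PSC libraries 1, 2 and 3. The groups did not overlap, though PSC library 3 was just under PSCN library 1. Means were 185 ± 56.1 CPM in PSCN libraries and 82.6 ± 35.8 CPM in PSC libraries, a log2 fold change of 1.16 (SE 0.37, adjusted p = 0.195). Leaving out single libraries gave log2 fold changes of 0.89 to 1.59. CSTA (matched to mouse Csta1, stefin A, a cornified envelope protein) had 56.3, 184 and 58.9 CPM in PSCN libraries 1, 2 and 3, against 0.459, 7.42 and 66.7 CPM in PSC libraries 1, 2 and 3. PSC library 3 exceeded 2 of the 3 PSCN libraries, and the other PSC libraries were far lower. CSTA averaged 99.6 ± 72.8 CPM in PSCN libraries and 24.9 ± 36.4 CPM in PSC libraries, which gave a log2 fold change of 2.0 (SE 1.51, adjusted p = 0.455).

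STFA2L1 and STFA3, members of the mouse-specific expansion of stefin A genes, were low throughout. STFA2L1 had 0.7, 4.03 and 1.51 CPM in PSCN libraries 1, 2 and 3, against 0.162, 0.185 and 0.763 CPM in PSC libraries 1, 2 and 3, with a log2 fold change of 2.49 (SE 0.92, adjusted p = 0.210). PSC library 3 was above PSCN library 1 by a small margin. STFA3 had 0.408, 3.2 and 0.209 CPM in PSCN libraries 1, 2 and 3, against 0, 0 and 0.259 CPM in PSC libraries 1, 2 and 3, with a log2 fold change of 3.86 (SE 1.84, adjusted p = 0.273), and most of its level came from PSCN library 2. STFA1 did not pass the filter and had 7, 122 and 9 counts in PSCN libraries against 0 counts in every PSC library, so it was at least 17.5-fold higher against a floor of 3 counts per library. That bound rests on PSCN library 2, and without it the bound was 2.83-fold. STFA2 had 25 counts in PSCN library 2 only. STFA2 and STFA2L1 are 96.4% identical in coding sequence, and their counts may be mixed. Summed neutrophil markers, another source of stefin A genes in mouse, were 11492, 6176 and 11567 CPM in PSCN libraries 1, 2 and 3, against 2372, 12422 and 19205 CPM in PSC libraries 1, 2 and 3, mostly from LTF, while LY6G, CAMP and MPO were under 1 CPM in every library. Genes of that list went both ways: of 11 tested, 7 had a log2 fold change above 0, with a median of 0.73, and 0 were called. CSF3R had 49.9, 75.1 and 66.3 CPM in PSCN libraries 1, 2 and 3, against 14.1, 27.4 and 73.5 CPM in PSC libraries 1, 2 and 3. CHIL3 was among those below 0, with a log2 fold change of -0.81 (SE 0.89). The part of neutrophils in the stefin levels was not tested.

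CST3, the secreted cathepsin inhibitor cystatin C, was the only member for which every PSCN library was below every PSC library. It had 218, 154 and 211 CPM in PSCN libraries 1, 2 and 3, against 302, 415 and 266 CPM in PSC libraries 1, 2 and 3. The mean level of CST3 was 195 ± 35.3 CPM in PSCN libraries and 328 ± 78.0 CPM in PSC libraries, for a log2 fold change of -0.75 (SE 0.24, adjusted p = 0.195). Without single libraries the log2 fold change lay between -0.87 and -0.54. CST6 (cystatin E/M, a keratinocyte cystatin that restrains legumain and cathepsins) had 5.12, 10.7 and 4.53 CPM in PSCN libraries 1, 2 and 3, against 0.216, 0.224 and 1.81 CPM in PSC libraries 1, 2 and 3, with no overlap. On average CST6 had 6.79 ± 3.41 CPM in PSCN libraries and 0.751 ± 0.919 CPM in PSC libraries, and the log2 fold change was 3.17 (SE 1.0, adjusted p = 0.193). Without PSC library 3 it was 4.95, with an adjusted p of 0.0403. CST7 (cystatin F, made by cytotoxic and myeloid cells) had 1.62, 0.989 and 5.47 CPM in PSCN libraries 1, 2 and 3, against 1.39, 1.76 and 5.22 CPM in PSC libraries 1, 2 and 3, and the groups overlapped. Its log2 fold change was -0.05 (SE 0.82, adjusted p = 0.978). CST8 was not tested, with 10, 5 and 6 counts in PSCN libraries 1, 2 and 3, against 20, 79 and 6 counts in PSC libraries 1, 2 and 3. Macrophage markers, which include other myeloid genes, summed to 1028, 410.4 and 899.7 CPM in PSCN libraries 1, 2 and 3, against 414, 676 and 1051 CPM in PSC libraries 1, 2 and 3.

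For most members the libraries stood in a similar order. PSCN library 2 was the highest of all 6 libraries for 31 of the 39 tested members, against 21.5% of all genes, and PSC library 1 was the lowest or tied for the lowest for 27 of them, against 22.4% of all genes. PSC library 3 was the highest PSC library for 34 of 39 (87.2%), against 43.8% of all genes. For 22 of the 39 members (56.4%, against 73.2% of all genes) PSC library 3 reached or exceeded the lowest PSCN library. PSC libraries 1 and 2 were both below every PSCN library for 27 of the 39 (69.2%, against 27.7% of all genes). Squamous markers had the same order, highest in PSCN library 2 and lowest in PSC library 1, and their part in the members' order was not tested. Without PSC library 3 the median log2 fold change over the tested members was 3.25, with 5.33 for kallikreins, 3.17 for chromosome 1 serpins, 1.07 for chromosome 13 serpins, 4.13 for stefins, 1.58 for SPINK genes and 0.79 for type 2 cystatins.

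**Figure D4:**
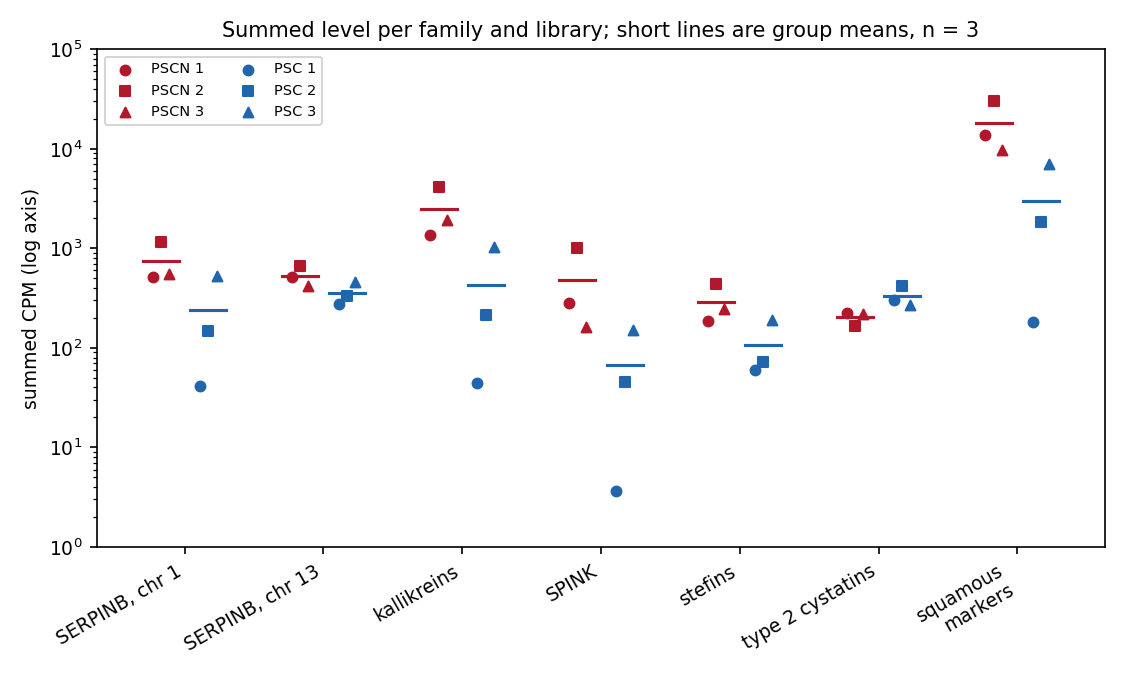
Summed CPM on a log axis of each family and of the squamous marker list, with a point for each library and a short line for the group mean; PSCN stands left of PSC in each pair. Kallikreins lie between 1349.7 and 4149 CPM in PSCN and between 44.7 and 1033 CPM in PSC. The summed type 2 cystatins show the reverse order of groups, at 166 to 225 CPM in PSCN and 273 to 418 CPM in PSC. That sum is nearly all CST3 (154 to 218 CPM in PSCN and 266 to 415 CPM in PSC), while CST6 averaged 6.79 CPM in PSCN and 0.751 CPM in PSC.

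The proteases and substrates that these inhibitors and kallikreins act on were read from 4 lists, and 0 genes of any list were called in either direction. Of the cysteine cathepsins and legumain, targets of stefins and cystatins, 10 were tested, 7 were above 0, and the median log2 fold change was 0.36. CTSO, a cathepsin, averaged 29.1 ± 8.22 CPM in PSCN libraries and 48.9 ± 2.43 CPM in PSC libraries, a log2 fold change of -0.75 (SE 0.24, adjusted p = 0.194). CTSK, the collagen-degrading cathepsin K, had a log2 fold change of 1.73 (SE 0.78, adjusted p = 0.256). Of 7 tested leukocyte serine proteases and urokinase, 3 were above 0 and the median was -1.02, with CMA1, the mast cell chymase, at -3.43 (SE 1.06, adjusted p = 0.192). TPSB2, a mast cell tryptase, was at 0 in every PSCN library, against 0.621, 0.29 and 1.17 CPM in PSC libraries 1, 2 and 3. Mast cell markers summed to 114, 126 and 211 CPM in PSCN libraries 1, 2 and 3, against 329, 262 and 249 CPM in PSC libraries 1, 2 and 3. Nearly all of this sum was KIT and HDC, and the other genes of that list had at most 1.27 CPM in any library. KIT had 99.8, 92.9 and 172 CPM in PSCN libraries 1, 2 and 3, against 130, 123 and 148 CPM in PSC libraries 1, 2 and 3. HDC had 13.6, 33.0 and 38.9 CPM in PSCN libraries 1, 2 and 3, against 195, 136 and 96.2 CPM in PSC libraries 1, 2 and 3. Of the 7 mast cell markers tested, 0 had a log2 fold change above 0, with a median of -4.24, and 0 were called. The part of mast cells in the CMA1 and TPSB2 values was not tested.

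Of the 16 tested membrane serine proteases and other epithelial inhibitors, 12 were above 0 with a median of 0.75. At an unadjusted p under 0.05, 4 were higher and 3 lower, against 9.48% and 12.2% of all genes. The 2 genes of this list with the smallest p were both lower in PSCN libraries, unlike most of the list. TMPRSS2, a serine protease of luminal epithelium, averaged 11.1 ± 3.25 CPM in PSCN libraries and 72.5 ± 40.1 CPM in PSC libraries, a log2 fold change of -2.71 (SE 0.55, adjusted p = 0.171), and HPN (hepsin) had -2.22 (SE 0.32, adjusted p = 0.137). Both ran with the club cell markers, whose sums were lower in every PSCN library than in any PSC library, and the part of those cells was not tested. Of the 6 tested kallikrein substrates and receptor, 5 were above 0 with a median of 1.74. CDSN (corneodesmosin, which KLK5 and KLK7 cut in human epidermis) averaged 98.8 ± 64.3 CPM in PSCN libraries and 4.59 ± 3.73 CPM in PSC libraries, a log2 fold change of 4.43 (SE 0.88, adjusted p = 0.171). FLG (filaggrin, the keratin-bundling protein of cornified cells) had a log2 fold change of 5.47 (SE 1.44, adjusted p = 0.187).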

How the data were processed

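Total RNA libraries were made with a stranded kit and read as pairs of 76 nt, per the labels' protocols. Per the submitters' processing notes, Trimmomatic, HISAT2 and StringTie were used, then DESeq2, on GRCm38; versions are not listed. The table deposited by the authors holds estimated counts per symbol as whole numbers, which were used as counts. The authors also deposited a DESeq2 table with a mean normalized signal, log2 fold changes with standard errors, a test score and p-values, used here only where it is named. Columns were matched to titles by letter and number.

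After filterByExpr, 21201 genes were normalized with TMM and compared by edgeR's quasi-likelihood F test (version 4.0.16, R 4.3.3). Adjustment was by Benjamini-Hochberg at 0.05, and degrees of freedom were 4 residual and 2.03 prior. Each SE was computed as the absolute log2 fold change over the square root of F. Alternatives used DESeq2 1.42.0 and limma 3.58.1. The fit was tested on simulated data. Floors of 3 counts cover counting error only, because no molecular identifiers mark duplicate reads. With 3 libraries a group, exact permutation allows no two-sided p under 0.1, so it was not used.

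The members and lists were chosen with earlier results of these data known. Members with a mean of at least 1 CPM in either group were named. Values for every library are given for up to 3 of these per family with the smallest p and the 2 with the highest mean, and from each related list up to 2 genes with the smallest p were named. Other genes were given for a stated reason beside them. Coordinates and coding sequences are from GENCODE M21, with SERPINB4, SERPINB6 and CSTA matched through RefSeq synonyms. SERPINB1 and KLK3 were not matched. Protein sequences were not used here.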

Additional observations from a re-analysis of the deposited data

How the results depend on the processing

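The log2 fold changes of NSD3, of the 39 tested members and of the named related genes kept their sign under every alternative run, except for 7 members. With sex as a covariate, the group term compared the PSCN libraries with PSC library 1 alone, the only male PSC library. CST7 turned from -0.05 to 0.46 with limma-voom and quality weights, 0.22 without PSCN library 1, 0.32 without PSCN library 2, 0.79 without PSC library 3 and 0.95 with sex as a covariate. SERPINB9 turned to 0.023 with sex as a covariate, and without PSCN library 2 SERPINB12 turned to -0.59 and SERPINB9B to -0.22. Among members with means under 1 CPM, SERPINB1C turned to 0.64 with sex as a covariate, and SPINK2 to -0.022 with upper quartile normalization and -0.25 with sex as a covariate. Members called higher were 0, against 8 with DESeq2 and 14 with limma-voom and quality weights, which also called 1 member lower. Members at an unadjusted p under 0.05 were 10 higher and 1 lower. The higher count was 21 of 45 with DESeq2 (46.7%, against 7.98% of all genes), 21 of 39 with limma-voom without weights (53.8%, against 10.9%) and 26 with quality weights (66.7%, against 20.1%). It was 6 of 26 with a filter of 1 CPM in 3 libraries (23.1%, against 10.5%) and 19 of 39 with sex as a covariate (48.7%, against 8.51%). The lower count was 2 with DESeq2 (4.44%, against 11.4%). All genes called were 1 higher and 0 lower, against 904 and 1843 with DESeq2 and 1788 and 1238 with quality weights. The higher count was 3 with the 1 CPM filter, 3 with adjusted deviances (an alternative chosen after seeing the data), and 0 without quality weights. Related genes called were 0 in each direction. They were 6 higher and 5 lower with DESeq2 (4.02% and 8.2% of all genes). With quality weights they were 7 higher and 5 lower (8.43% and 5.84% of all genes). The median of the tested members, 1.86, was 2.63 with quality weights. It was 4.58 with sex as a covariate, where PSC library 1 alone stood for the PSC group. NSD3 passed the threshold with DESeq2 (3.72, adjusted p = 3.24e-15), with quality weights (3.76, adjusted p = 0.0215) and without PSC library 3 (3.81, adjusted p = 0.0403). The cause of these differences was not tested.

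Leaving out 1 library in turn gave 0 to 5 members called higher and 0 lower, 2 to 25 at an unadjusted p under 0.05 higher (5% without PSCN library 2, against 4% of all genes, and 62.5% without PSC library 3, against 16%) and 0 to 2 lower, and 0 to 751 genes called higher and 0 to 1195 lower over all genes. Related genes called were 0 to 6 higher and 0 to 2 lower, where 0% to 3.39% of all genes were called higher and 0% to 5.4% lower. Members with groups apart were 16 to 27 higher and 1 to 3 lower. Groups are more easily apart with 2 libraries on one side, so the 15.2% and 13.4% of all genes above are no background here. The count of 27 came without PSC library 3. Among genes of the main fit, PSC libraries 1 and 2 were both below every PSCN library for 69.2% of members, against 27.7% of all genes. For the other omissions no share over all genes is given. The median over the members tested in each fit was 1.30 to 3.24, and the log2 fold change of NSD3 was 3.21 to 3.95. For the members whose sign changed when 1 library was left out the ranges were -1.12 to 0.79 for CST7, -0.59 to 2.22 for SERPINB12, -0.22 to 1.13 for SERPINB9B, -0.36 to 0.14 for SERPINB1C, -0.19 to 1.58 for SPINK10 and -0.37 to 0.31 for SPINK2. The upper end of the higher calls came without PSC library 3.

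Replicate numbers are shared between groups. Deviations of same-numbered libraries from their group means had correlations of 0.186, -0.053 and 0.016, against -0.178 to 0.187 for the other pairs. With 3 libraries a group, these values cannot show whether same-numbered libraries shared a batch. With the replicate number as a block, 0 genes were called higher, 14 members were higher (35.9%, against 8.24% of all genes) and 0 lower (9.51%) at an unadjusted p under 0.05, and no single member changed its call. Depth limits the members with counts at or near 0 in PSC libraries, whose fold changes rest on few reads, and sets of near-identical genes cannot be separated by these counts.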

Other observations

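Genes of the stefin cluster on chromosome 16 whose symbols fall outside the naming rule were looked at after their values were seen. BC100530 had 500, 15393 and 941 counts in PSCN libraries 1, 2 and 3, against 7, 7 and 94 counts in PSC libraries 1, 2 and 3, with a log2 fold change of 7.46 (SE 2.06) and an edgeR adjusted p of 0.19. Its count exceeded that of every STFA row, and its coding sequence is 97.9% identical to that of STFA1 and 97.6% to that of BC117090. BC117090 had 45, 1778 and 216 counts in PSCN libraries, against 0, 0 and 21 in PSC libraries. GM5483 had 29, 265 and 137 counts in PSCN libraries, against 0, 10 and 54 in PSC libraries, and GM5416 had 7, 24 and 14 counts in PSCN libraries, against 0 in every PSC library. All of these were highest in PSCN library 2.

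Kallikrein pseudogenes, left out by the naming rule and also looked at after their values were seen, had few counts. Their group means were higher in PSCN libraries, but single libraries overlapped or tied for some of them. KLK1B19-PS had 8, 109 and 131 counts in PSCN libraries, against 0, 0 and 10 in PSC libraries, so PSCN library 1 was below PSC library 3. KLK2-PS had 7, 166 and 41 counts in PSCN libraries, against 0, 0 and 6 in PSC libraries. For KLK1B14-PS there were 0, 28 and 9 counts in PSCN libraries and 0 in every PSC library. KLK1B12-PS had 0, 4 and 14 counts in PSCN libraries and 0 in every PSC library.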
